A study of Rattus norvegicus with 6 samples.

Results

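The transcripts described here are 8 genes of muscle wasting, the ubiquitin ligases Fbxo32, Trim63, Trim55 and Trim54, the transcription factors Foxo1, Foxo3 and Klf15, and the secreted factor Mstn. They were taken by symbol from the deposited table of 22250 rat genes, and all 8 were found in it. RNA-Seq was performed on left ventricular myocardium from 3 young and 3 aged Sprague-Dawley donor hearts, collected on postoperative day 1 after heterotopic transplantation. Young donors were 10 weeks old and aged donors 1 year old, and all 6 carried the WT genotype. Per the study's methods, the rats were male, all donor hearts were kept cold between harvest and implantation, and the recipients were young. A heterotopic graft is perfused by the recipient but does not replace the recipient's own heart, and the study names this as a limit of the model. The study asked how cold protection of the donor heart differs with donor age. Hearts are named by group and animal number, so young heart 3 and aged heart 3 are different hearts and no number pairs them.

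Muscle loses mass when its proteins are tagged with ubiquitin and sent to the proteasome. In striated muscle much of this tagging is assigned to atrogin-1, the F-box protein encoded by Fbxo32, and to MuRF1, the RING ligase encoded by Trim63. The FoxO factors switch both genes on when insulin and Akt signaling is low, the glucocorticoid receptor acts on the same genes directly and through Klf15, and myostatin, encoded by Mstn, restrains muscle growth through activin receptors.

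Each library held 21457509 to 22277905 reads on genes in the young group and 22508040 to 24560869 in the aged group. The mitochondrial genome took 11.9% to 21.7% of them in young and 6.56% to 10.3% in aged donor hearts. Levels below are given as CPM, the read count relative to a library size scaled by TMM, which sets libraries level on the bulk of their genes. On this scale 3 counts correspond to 0.0985 to 0.191 CPM. Libraries within a group stood apart from each other, and this bears on every gene below. The summed level of 10 cardiomyocyte markers was 93061 CPM in young heart 3 and 103297 CPM in young heart 13. It was 12238.5 CPM in young heart 15, and 581, 7086 and 5697 CPM in aged hearts 3, 4 and 7. None of these 10 markers was at 0 in any heart, and Myl2, the ventricular myosin light chain, ranged from 47.4 to 388 CPM in young and from 0.886 to 40.4 CPM in aged donor hearts. Young heart 15 therefore lay between the other young hearts and the aged hearts, and aged heart 3 lay far below the rest. In bulk tissue, fewer cells of a type and less RNA per cell cannot be told apart.

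Neutrophil and macrophage markers differed between the groups too. The summed level of 10 neutrophil markers was 17.0 to 144 CPM in young and 356 to 1354 CPM in aged donor hearts, and that of 10 macrophage markers was 374 to 2409 CPM and 3796 to 7335 CPM. Summed fibroblast markers were 6250 to 7806 CPM in young and 2019 to 4144 CPM in aged donor hearts. Their mean log2 CPM overlapped, at 8.36 to 8.82 in young and 7.44 to 8.54 in aged donor hearts. Summed endothelial markers overlapped as well, at 1152 to 1673 CPM and 927 to 1419 CPM. Skeletal muscle markers summed to 10.2 to 18.1 CPM over all 6 hearts, with 7 of 9 in the table. The part of these differences between cell markers in the results below was not tested.

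A gene was counted as past the limits when its fold change exceeded 1.5 or lay under 0.67 and its p in edgeR's quasi-likelihood test, before adjustment, was under 0.05. Of 13784 genes tested, 32.2% were past these limits, 13.2% higher and 19.0% lower in aged donor hearts. Among the 8 members, 7 had enough reads to be tested, and 4 of these 7 were past the limits, all lower in aged donor hearts: Fbxo32, Trim55, Foxo1 and Klf15. The groups did not overlap, with every aged heart below every young heart, for 4 of the 7, namely Fbxo32, Trim63, Trim55 and Klf15, beside 20.7% of all genes tested. The median log2 fold change was -2.36 over the 7 members and 0.016 over all genes tested. No gene in the table had a Benjamini-Hochberg adjusted p under 0.05 in edgeR's quasi-likelihood test, while 4731 had an unadjusted p under 0.05, and the smallest adjusted p was 0.0916. The DESeq2 Wald test gave 3380 genes at an adjusted p under 0.05. These held Klf15 (0.00022), Fbxo32 (0.0014), Trim55 (0.0135) and Trim63 (0.041), but not Foxo1 (0.103), Foxo3 (0.411) or Trim54 (0.651). limma-voom with quality weights gave 8417 genes, with every tested member but Trim54 (0.269) among them. These directions are relative to the bulk of all transcripts. With the libraries scaled on the cardiomyocyte markers instead, all 7 members were fitted higher in aged donor hearts, by 0.13 to 5.93 on the log2 scale. The standard errors were 2.12 to 2.75, and only Foxo1 and Foxo3 were past the limits, beside 75.3% of all genes. The median of all genes then moved to 5.75, above 6 of the 7.

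**Figure D1:**
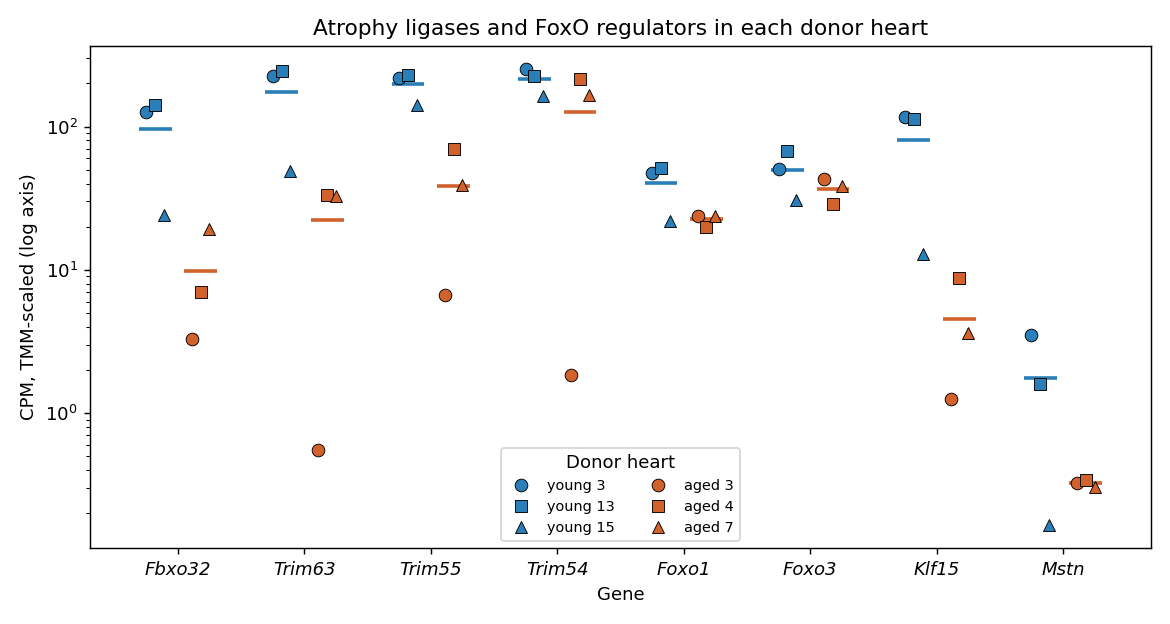
TMM-scaled CPM (log axis) of the 8 genes in each of the 3 young (blue) and 3 aged (orange) donor hearts, with 1 symbol per heart and a bar at each group mean. Fbxo32, Trim63, Trim55 and Klf15 were lower in every aged than in every young heart on this scale. Scaled on cardiomyocyte markers, their fitted changes were above 0 (SE 2.12 to 2.27), not past the limits, and below the median of all genes (5.75). Aged heart 3 had 0.558 CPM of Trim63 and 1.84 CPM of Trim54.

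Fbxo32 (ENSRNOG00000006738, chr7:98063735-98098268 of Rnor_6.0, minus strand) encodes atrogin-1, the substrate adaptor of an SCF ubiquitin ligase. It was measured at 126, 140 and 24.0 CPM in young hearts 3, 13 and 15 and at 3.28, 7.01 and 19.4 CPM in aged hearts 3, 4 and 7. Young heart 15 and aged heart 7 were the nearest neighbors across the gap between the groups. The means were 96.8 ± 63.4 CPM and 9.89 ± 8.43 CPM (SD, n = 3 each), 9.79-fold lower in aged donor hearts. The log2 fold change was -3.29 (SE 0.90), with a Benjamini-Hochberg adjusted p = 0.0920. in edgeR's quasi-likelihood test Fbxo32 stayed past the limits whichever heart was left out, and its log2 fold change then ranged from -4.22 (without aged heart 7) to -2.87 (without aged heart 3).

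Trim63 (ENSRNOG00000016543, chr5:152533349-152547179, plus strand) encodes MuRF1, a RING ligase that sits on the M-line of the sarcomere and targets thick filament proteins. It was measured at 225, 243 and 49.2 CPM in young hearts 3, 13 and 15 and at 0.558, 33.4 and 32.7 CPM in aged hearts 3, 4 and 7. Aged hearts 4 and 7 were nearly equal, while aged heart 3 held 17 reads of this gene against 881 and 853. The means were 172.7 ± 107.2 CPM and 22.2 ± 18.7 CPM (SD, n = 3 each). The groups did not overlap, but the log2 fold change of -2.96 (SE 1.31) was not past the limits, with a Benjamini-Hochberg adjusted p = 0.162. in edgeR's quasi-likelihood test It came past them without aged heart 3 (log2 fold change -2.38) and without young heart 15 (-3.36).

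Trim55 (ENSRNOG00000012723, chr2:104416972-104459107, plus strand) encodes MuRF2, a relative of MuRF1 that binds titin and microtubules. It was measured at 219, 229 and 141 CPM in young hearts 3, 13 and 15 and at 6.63, 69.3 and 39.0 CPM in aged hearts 3, 4 and 7. The gap between the groups lay between young heart 15 and aged heart 4. The means were 196 ± 48.0 CPM and 38.3 ± 31.3 CPM (SD, n = 3 each), 5.13-fold lower in aged donor hearts. The log2 fold change was -2.36 (SE 0.78), with a Benjamini-Hochberg adjusted p = 0.104. in edgeR's quasi-likelihood test It ranged from -3.10 (without aged heart 4) to -1.85 (without aged heart 3), and it was no longer past the limits without aged heart 7.

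Trim54 (ENSRNOG00000006146, chr6:26603369-26624092, minus strand) encodes MuRF3, which associates with the Z-disc and stabilizes microtubules. It was measured at 253, 225 and 164 CPM in young hearts 3, 13 and 15 and at 1.84, 213 and 167 CPM in aged hearts 3, 4 and 7. Aged hearts 4 and 7 lay inside the young range, and aged heart 3 held 56 reads against 5628 and 4349. The means were 214 ± 45.6 CPM and 127 ± 111 CPM (SD, n = 3 each). The log2 fold change of -0.75 (SE 1.24) was not past the limits, with a Benjamini-Hochberg adjusted p = 0.678. in edgeR's quasi-likelihood test Without aged heart 3 it was -0.16 (SE 0.29).

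The promoter of each gene was taken from RefSeq (GRCr8), which held 4 of the 8 members, Trim63, Trim54, Foxo1 and Klf15. Trim63 and Trim54 are shown because both encode MuRF ligases and Trim63, but not Trim54, was below the young range in aged hearts 4 and 7, and capitals mark the motif matches in the bases upstream of each gene, written 5′ to 3′ on the gene's strand. The Trim63 stretch is chr5:151816986-151817208 (plus strand) and the Trim54 stretch chr6:30978476-30978725 (minus strand).
Trim63: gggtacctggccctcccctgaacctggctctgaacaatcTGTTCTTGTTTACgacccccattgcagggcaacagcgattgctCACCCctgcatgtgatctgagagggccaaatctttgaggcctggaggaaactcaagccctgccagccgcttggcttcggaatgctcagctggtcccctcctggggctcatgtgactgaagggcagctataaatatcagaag
Trim54: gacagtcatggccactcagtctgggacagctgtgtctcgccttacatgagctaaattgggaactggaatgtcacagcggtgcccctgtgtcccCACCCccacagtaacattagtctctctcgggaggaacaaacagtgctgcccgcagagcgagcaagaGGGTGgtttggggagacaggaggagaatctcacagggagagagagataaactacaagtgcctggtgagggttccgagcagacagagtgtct
The motifs searched on both strands of the 250 bases before the start were GTAAACA (FoxO core), AGAACA (1 arm of a glucocorticoid response element), CACCC (KLF) and CACGTG (E-box). In the Trim63 stretch the AGAACA match and the GTAAACA match lay side by side on the minus strand, 211 and 205 bases before the start, without overlap, and a CACCC match lay 168 bases before it. The Trim54 stretch held CACCC matches 157 and 91 bases before the start and no match to the other motifs. The Foxo1 window held none of these motifs. The Klf15 window held CACCC 204 bases and CACGTG 101 bases before the start, but no base of it lies outside the gene's listed interval. The start here is that of the promoter entry, and the gene interval can begin before it. For Trim63, 223 of the 250 bases lie outside the gene interval, and these are printed. Among 33469 rat promoters in the table, 3.21% held GTAAACA, 17.5% AGAACA, 49.2% CACCC and 5.59% CACGTG. These matches are a description of the letters in the window, and no binding was measured.

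The 3 MuRF genes did not keep their proportions. As shares of their summed CPM per kilobase of gene length, Trim63, Trim55 and Trim54 took 32.6%, 22.6% and 44.8% in young heart 3 and 35.6%, 24.0% and 40.4% in young heart 13. In young heart 15 the shares were 14.0%, 28.8% and 57.2%. In aged heart 4 they were 9.70%, 14.4% and 75.9%, and in aged heart 7 they were 12.3%, 10.5% and 77.1%. Trim54 thus held its largest shares in aged hearts 4 and 7, where the summed level was 181 and 139.5 CPM per kilobase against 185 to 365 in young donor hearts. Aged heart 3 went the other way, with 7.39%, 62.8% and 29.8% of a sum of 3.98 CPM per kilobase.

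**Figure D2:**
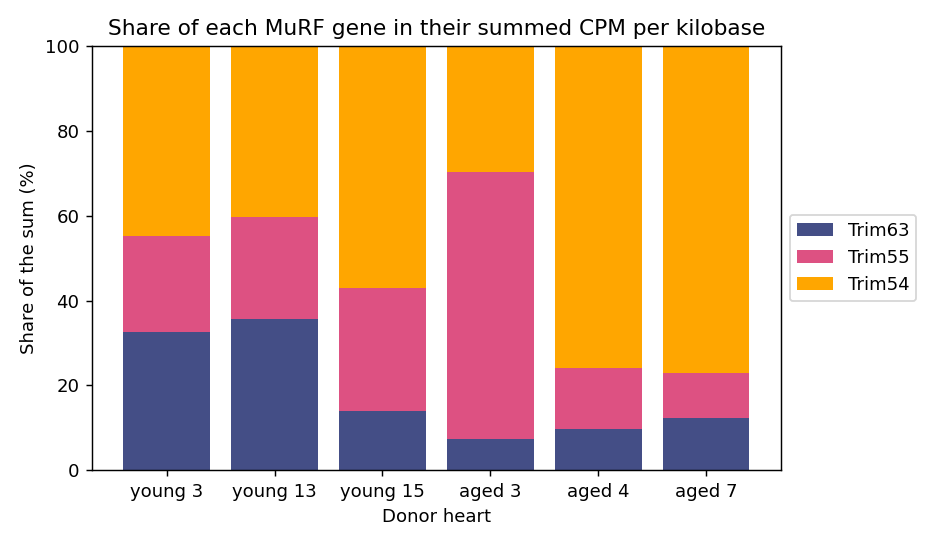
Stacked bars give the share (%) of Trim63, Trim55 and Trim54 in their summed CPM per kilobase, for each of the 6 donor hearts. Trim54 made up 40.4% to 57.2% in young donor hearts, 75.9% and 77.1% in aged hearts 4 and 7, and 29.8% in aged heart 3.

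Ratios within a heart do not depend on how libraries are scaled, and 13 such ratios were compared. The log2 ratio of Trim63 to Trim54 was -0.89 ± 0.99 in young and -2.53 ± 0.50 in aged donor hearts (SD, exact permutation test, two-sided, p = 0.2). Trim54 over Trim55 was 0.91 ± 0.14 in young donor hearts, and in aged hearts 3, 4 and 7 it was -1.06, 2.40 and 2.87, so aged heart 3 fell below and the others above the young values (exact permutation test, two-sided, p = 0.8). Without aged heart 3 the difference in this ratio was 1.73 on the log2 scale, with no overlap. The 2 classical atrophy ligases kept a narrow ratio in the young hearts, where Fbxo32 over Trim63 was -1.58, -1.54 and -1.78 on the log2 scale. In aged hearts 3, 4 and 7 it was 1.78, -2.99 and -1.50 (exact permutation test, two-sided, p = 0.7). The value of aged heart 3 rests on 17 Trim63 reads. An exact permutation test of 3 against 3 cannot give a p below 0.1.

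Foxo1 (ENSRNOG00000013397, chr2:141451234-141527016, plus strand) and Foxo3 (ENSRNOG00000000299, chr20:46428124-46519144, plus strand) encode the forkhead factors that act on Fbxo32 and Trim63 promoters. Foxo1 was measured at 47.5, 51.6 and 22.0 CPM in young hearts 3, 13 and 15 and at 23.9, 19.97 and 23.7 CPM in aged hearts 3, 4 and 7. Young heart 15 lay within the aged range, and the aged hearts were close to each other. The means were 40.4 ± 16.0 CPM and 22.5 ± 2.21 CPM (SD, n = 3 each), 1.79-fold lower in aged donor hearts. The log2 fold change of Foxo1 was -0.84 (SE 0.33), with a Benjamini-Hochberg adjusted p = 0.135. in edgeR's quasi-likelihood test Foxo1 stayed past the limits without young heart 15 (log2 fold change -1.10) but not without any of the other 5 hearts, where the values ran from -0.88 to -0.63, nor with library totals alone (-0.30).

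Foxo3 was measured at 50.5, 67.7 and 30.7 CPM in young hearts 3, 13 and 15 and at 43.3, 28.8 and 38.3 CPM in aged hearts 3, 4 and 7. The groups overlapped, with young heart 15 among the aged hearts. The means were 49.6 ± 18.5 CPM and 36.8 ± 7.35 CPM (SD, n = 3 each). The log2 fold change was -0.43 (SE 0.32), with a Benjamini-Hochberg adjusted p = 0.354 in edgeR's quasi-likelihood test, and it was 0.10 with library totals as the only scaling, where the median of all genes was 0.46. Without young heart 15 it was -0.64 and past the limits. Within each heart the ratio of Foxo1 to Foxo3 per kilobase was 1.06, 0.858 and 0.809 in young hearts 3, 13 and 15 and 0.621, 0.779 and 0.695 in aged hearts 3, 4 and 7. The ratio was thus lower in every aged heart, by 0.38 on the log2 scale (exact permutation test, two-sided, p = 0.1, Benjamini-Hochberg adjusted p = 0.325 over the 13 ratios).

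Klf15 (ENSRNOG00000017808, chr4:122365093-122377659, plus strand) encodes a zinc finger factor that the glucocorticoid receptor induces and that promotes the breakdown of branched-chain amino acids. It was measured at 116, 113 and 13.004 CPM in young hearts 3, 13 and 15 and at 1.25, 8.71 and 3.64 CPM in aged hearts 3, 4 and 7. Young heart 15 was much nearer to the aged hearts than to the other young hearts. The means were 80.7 ± 58.6 CPM and 4.53 ± 3.81 CPM (SD, n = 3 each), 17.8-fold lower in aged donor hearts. The log2 fold change was -4.15 (SE 1.06), with a Benjamini-Hochberg adjusted p = 0.0916. in edgeR's quasi-likelihood test Klf15 stayed past the limits whichever heart was left out, with log2 fold changes from -5.04 (without aged heart 4) to -3.70 (without aged heart 3).

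Mstn (ENSRNOG00000021294, chr9:53309598-53315915, minus strand) encodes myostatin. It gave 58, 25 and 4 reads in young hearts 3, 13 and 15 and 10, 9 and 8 reads in aged hearts 3, 4 and 7, or 3.51, 1.59 and 0.165 CPM and 0.328, 0.341 and 0.306 CPM. Young heart 15 had the lowest level of all 6 hearts, so the groups overlapped. The means were 1.75 ± 1.68 CPM and 0.325 ± 0.0175 CPM (SD, n = 3 each), and the exact permutation test, two-sided, of log2 CPM gave p = 0.4. Mstn did not pass the filter on low counts and was left out of the fit across genes. Fitted without this filter it was lower past the limits, beside 16.2% of all genes. Without young heart 15 it passed the filter and was again lower past the limits, beside 24.2% of all genes. It was tested but not past them without aged heart 3, 4 or 7.

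Per kilobase of gene length, the order of the mean levels in young donor hearts was Trim54 (138 ± 29.5 CPM per kilobase), Trim63 (91.1 ± 56.6), Trim55 (74.0 ± 18.1), Klf15 (33.2 ± 24.1), Fbxo32 (30.4 ± 19.9), Foxo3 (17.2 ± 6.43), Foxo1 (15.8 ± 6.25) and Mstn (0.669 ± 0.640). The intervals of mean ± SD overlapped between all neighbors in this order except Foxo1 and Mstn. In aged donor hearts it was Trim54 (82.2 ± 71.7 CPM per kilobase), Trim55 (14.4 ± 11.8), Foxo3 (12.8 ± 2.55), Trim63 (11.7 ± 9.89), Foxo1 (8.79 ± 0.862), Fbxo32 (3.11 ± 2.65), Klf15 (1.87 ± 1.57) and Mstn (0.124 ± 0.00667). There Fbxo32 and Klf15 came after Foxo1, and the intervals of mean ± SD separated Foxo1 from Fbxo32 and Klf15 from Mstn.

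Young heart 15 was below the mean of the other young hearts for every member, by unequal amounts. Its level relative to the mean of young hearts 3 and 13 was 0.0648 for Mstn, 0.114 for Klf15, 0.1804 for Fbxo32 and 0.210 for Trim63, against 0.445 for Foxo1, 0.519 for Foxo3, 0.631 for Trim55 and 0.685 for Trim54. On the log2 scale, the cardiomyocyte marker mean was -2.75 in young heart 15 and -8.56, -3.56 and -3.98 in aged hearts 3, 4 and 7 relative to young hearts 3 and 13. Trim63 was at -2.25 in young heart 15 and at -8.71, -2.81 and -2.84 in the aged hearts. The gene values here use no prior count, while the marker mean uses a prior count of 2. With that prior for both, Trim63 minus the marker mean was -4.48 in aged heart 3. In young hearts 3 and 13 it was -4.52 and -4.55. Trim54 shared the fall in aged heart 3, at -7.02, but was -0.16 and -0.52 in aged hearts 4 and 7. Foxo1 stayed between -1.31 and -1.05 in all 4 of these hearts.

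**Figure D3:**
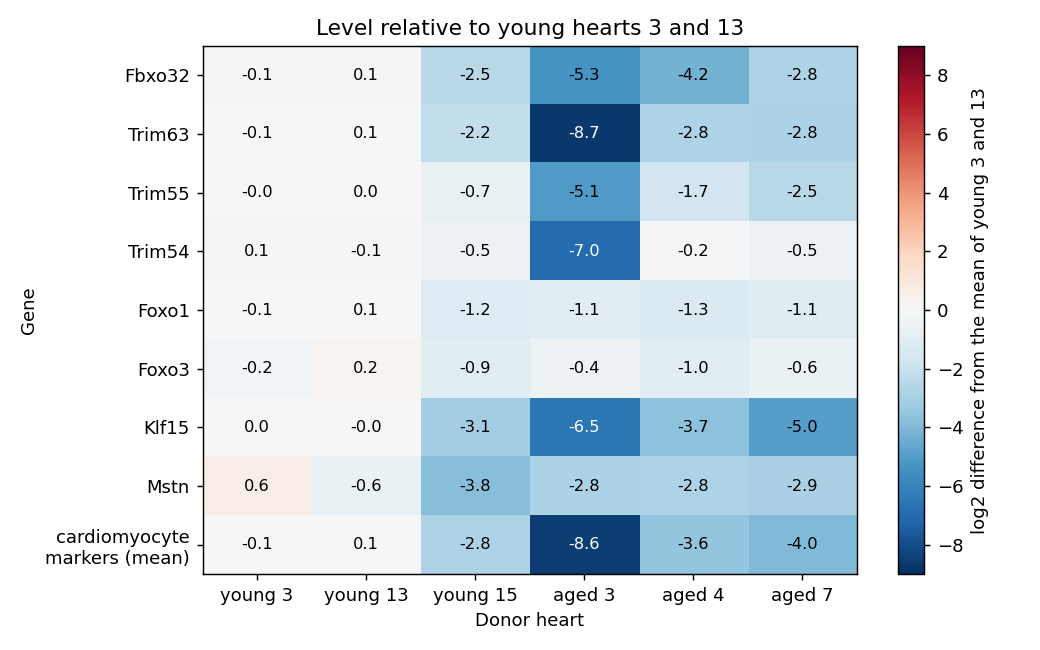
Cells give the log2 difference of each gene, and of the mean of 10 cardiomyocyte markers, from the mean of young hearts 3 and 13 in each of the 6 donor hearts; blue is lower. Aged heart 3 was lowest for Trim63 (-8.71), Trim54 (-7.02) and the cardiomyocyte markers (-8.56), while Foxo3 there was -0.43.

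Each member was also set against the cardiomyocyte markers of the same heart. The log2 difference from the marker mean did not overlap between the groups for Foxo1, Foxo3 and Mstn. It was higher in aged donor hearts, by 3.70, 4.07 and 2.97. Each gave p = 0.1 in an exact permutation test, two-sided, and a Benjamini-Hochberg adjusted p = 0.325. In aged hearts 3, 4 and 7 it was 0.74, -4.52 and -3.86 for Foxo1 and 1.60, -3.99 and -3.17 for Foxo3. For Mstn, at 10, 9 and 8 reads, it was -5.11, -10.1 and -9.78. Aged heart 3, with the lowest markers, thus carried much of each mean difference. The share of all genes that did not overlap on this measure was not counted. When libraries were scaled on the same markers, 75.3% of all genes were higher past the limits, with a median log2 fold change of 5.75. For the other 5 members the groups overlapped, with differences of 0.48 for Trim63, 0.47 for Klf15, 1.17 for Fbxo32, 1.58 for Trim55 and 2.09 for Trim54, and exact permutation p from 0.2 to 0.9, two-sided. With the marker mean as a covariate in edgeR's quasi-likelihood test, 0 of the 7 tested members were past the limits, beside 4.65% of all genes. In that fit the log2 fold change was -0.90 for Fbxo32, -1.26 for Klf15, 0.83 for Trim63 and 1.88 for Trim54. Within each group the markers themselves ranged widely.

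Without the libraries that stood apart, young heart 15 and aged heart 3, the members were lower in aged donor hearts in more cases. Of 8 members tested, 7 were then past the limits, all but Trim54, beside 53.4% of all genes past the limits in either direction and 26.2% lower. The log2 fold changes were -3.29 for Fbxo32, -2.79 for Trim63, -2.01 for Trim55, -1.14 for Foxo1, -0.77 for Foxo3 and -4.17 for Klf15, and that of Trim54 was -0.29 (SE 0.17). This alternative was chosen after seeing the data and left 2 hearts in each group.

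Over the 6 hearts, the genes with the pattern most like each member were sought among 9559 tested genes with a mean of at least 10 CPM, by the root mean square difference of centered log2 CPM. Trim63 was closest to Myl3, a ventricular myosin light chain and one of the cardiomyocyte markers (0.10), and then to Chchd10 (0.13) and Cox8b (0.15), both mitochondrial. Klf15 was closest to Fhl2 (0.17), Rxrg (0.28) and Rnf207 (0.29), and Fbxo32 to Prox1 (0.30), Sspn (0.33) and Oxct1 (0.36). Trim55 was closest to Cacnb2 (0.19), a calcium channel subunit, Myocd (0.23), the cofactor myocardin, and Adra1a (0.24), an adrenergic receptor. Trim54 was closest to Cnksr1 (0.26), Nkx2-5 (0.40), a cardiac homeobox factor, and Alpk2 (0.42). Foxo1 was closest to Jam3 (0.027), Rapgef2 (0.076) and Mkks (0.078), and Foxo3 to Gpc6 (0.090) and Masp2 (0.11). Among the members themselves, Foxo1 and Foxo3 were the closest pair (0.24), followed by Fbxo32 and Klf15 (0.89).

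Around these 8 genes, 6 lists of pathway genes written from general knowledge held 125 different genes that were tested, of which 31 were lower (24.8%) and 19 higher (15.2%) past the limits, beside 19.0% and 13.2% of all genes tested. The counts of each list below are to be read against these shares of all genes. Among the genes named below, those past the limits had Benjamini-Hochberg adjusted p from 0.0916 to 0.135 in edgeR's quasi-likelihood test. With library totals as the only scaling the split was 18 lower and 34 higher, beside 10.4% lower and 22.8% higher among all genes, and the median of all genes then moved to 0.46. Of the other muscle ubiquitin ligases and their partners, 9 of 25 were lower and 1 higher, with a median log2 fold change of -0.49, and library totals alone gave 7 lower and 3 higher. The muscle F-box gene Fbxo40, whose product acts on Irs1, was measured at 182, 213 and 24.7 CPM in young hearts 3, 13 and 15 and at 0.394, 13.5 and 7.51 CPM in aged hearts 3, 4 and 7 (log2 fold change -4.29, SE 1.33), and it was not past the limits without aged heart 7 (-4.32). Fbxl22, a Z-disc F-box gene, fell by 3.43, Trim72, encoding the membrane repair protein MG53, by 3.03, and the conjugating enzyme Ube2d1 by 1.53 on the log2 scale. Cblb, a ligase of immune and muscle cells, rose by 1.09, and Fbxo30, a ligase studied in muscle wasting, was at -0.30 and not past the limits.

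Among 26 FoxO target genes, 6 were lower and 2 higher, with a median of -0.22, and library totals alone gave 4 lower and 4 higher. The autophagy kinase Ulk1 was at 214, 256 and 62.9 CPM in young hearts 3, 13 and 15 and at 36.9 to 43.0 CPM in aged donor hearts (log2 fold change -2.16, SE 0.51). Sesn1, a stress-induced inhibitor of mTORC1, fell by 2.77, the mitophagy receptor Bnip3 by 1.97 and the cyclin Ccng2 by 1.52 on the log2 scale. Ctsl, a lysosomal protease that macrophages also make, rose by 1.54 from 365 to 785 CPM in young to 1140 to 2195 CPM in aged donor hearts. Pdk4, the kinase that shuts off pyruvate dehydrogenase, was at 304, 387 and 108 CPM against 6.99, 221 and 511 CPM, and its log2 fold change of -0.11 (SE 1.22) was not past the limits. Gadd45a was at 0.45 (SE 0.63) and not past them, but at 0.91 and past them without aged heart 3. Bnip3 was not past them without young heart 13 (-1.55), aged heart 3 (-1.68) or aged heart 4 (-1.85), Ccng2 not without aged heart 4 (-1.38), and Ctsl not without young heart 3 (1.38) or young heart 13 (1.34).

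In the list of insulin and Akt signaling upstream of FoxO, 7 of 24 genes were lower and 1 higher, with a median of -0.25. Library totals alone gave 3 lower and 3 higher. The list also holds the FoxO factors Foxo4 and Foxo6 and the coactivator gene Ppargc1a. These are among the 7 lower genes, so the count is not of upstream signaling alone. The FoxO paralog Foxo6 was at 12.0, 10.9 and 1.53 CPM in young hearts 3, 13 and 15 and at 0, 0.417 and 0.230 CPM in aged hearts 3, 4 and 7, where the count of 0 in aged heart 3 allows up to 0.0985 CPM. Ppargc1a, the coactivator of mitochondrial biogenesis, was at 72.1, 103 and 15.6 CPM against 0.164, 4.32 and 1.95 CPM, a log2 fold change of -4.89 (SE 1.20). Irs1, the docking protein of the insulin receptor, fell by 1.40 and Foxo4 by 0.88 on the log2 scale. The Foxo4 groups overlapped, and it was not past the limits without young heart 3 (-0.81), young heart 13 (-0.65), aged heart 3 (-0.66) or aged heart 4 (-0.87), nor with library totals alone (-0.37). Sgk1, a kinase related to Akt and a glucocorticoid target, rose by 1.17. Akt1 (-0.39), Igf1r (0.38) and Igf1 (-0.04) were not past the limits, but Igf1r (0.59) was past them without young heart 15.

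Of 14 genes of the glucocorticoid receptor and its targets, 7 were lower and 4 higher, with a median of -0.41, and library totals alone gave 4 lower and 5 higher, so the list did not move in 1 direction. Zbtb16 fell by 2.25, Klf9, a relative of Klf15, by 1.80, Tsc22d3, encoding GILZ, by 1.07 and Ddit4, an inhibitor of mTORC1, by 1.00 on the log2 scale. Tsc22d3 was not past the limits without young heart 3 (-0.83), young heart 13 (-0.94), aged heart 4 (-0.998) or aged heart 7 (-0.98), nor with library totals alone (-0.53), and Ddit4 not with library totals alone (-0.57). Fkbp5, the receptor's cochaperone and a standard target, rose by 0.80, from 95.6 to 96.9 CPM in young to 138 to 213 CPM in aged donor hearts, and Cebpd rose by 1.62. The receptor gene itself, Nr3c1, was at 99.9 ± 5.88 CPM in young and 87.2 ± 17.1 CPM in aged donor hearts (SD, n = 3 each), and its log2 fold change of -0.20 (SE 0.20) was not past the limits.

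Around Mstn, 3 of 20 tested genes of the myostatin and activin pathway were higher and 2 lower, with a median of 0.19, and library totals alone gave 8 higher and 0 lower. Inhbb, encoding the activin B subunit, was at 7.74, 8.96 and 4.54 CPM in young hearts 3, 13 and 15 and at 108, 53.5 and 91.1 CPM in aged hearts 3, 4 and 7, a log2 fold change of 3.57 (SE 0.39). Inhba, encoding the activin A subunit, rose by 1.93 and the receptor gene Tgfbr1 by 0.78 on the log2 scale. Cd9, a tetraspanin gene and not a core part of this pathway, fell by 0.69 and is 1 of the 2 lower genes. The activin receptor gene Acvr2b (-0.83, SE 0.37) and the antagonist gene Fst (1.16, SE 1.05) were not past the limits. Fst was at 3.59 and past them without young heart 15, as was Acvr2b at -1.06 without aged heart 4. Cd9 was not past them without young heart 15 (-0.56) or with library totals alone (-0.26).

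Of 19 tested inflammatory signals tied to muscle atrophy, 9 were higher and 1 lower, with a median of 0.92, library totals alone gave 12 higher and 0 lower, and neutrophil and macrophage markers were higher in the same hearts. Socs3, the feedback inhibitor of cytokine receptors, was at 8.10, 8.58 and 27.7 CPM in young hearts 3, 13 and 15 and at 91.6, 61.9 and 109 CPM in aged hearts 3, 4 and 7, a log2 fold change of 2.56 (SE 0.56). Il1b rose by 3.84, Il6r by 1.92 and Nfkbia, the inhibitor of NF-κB, by 1.20 on the log2 scale. Il6 rested on few reads, with 0, 0 and 10 in the young hearts against 94, 26 and 213 in the aged hearts. Tnfrsf12a, the TWEAK receptor gene, was at 1.53 (SE 0.90) and not past the limits, but at 3.07 and past them without young heart 15.

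**Figure D4:**
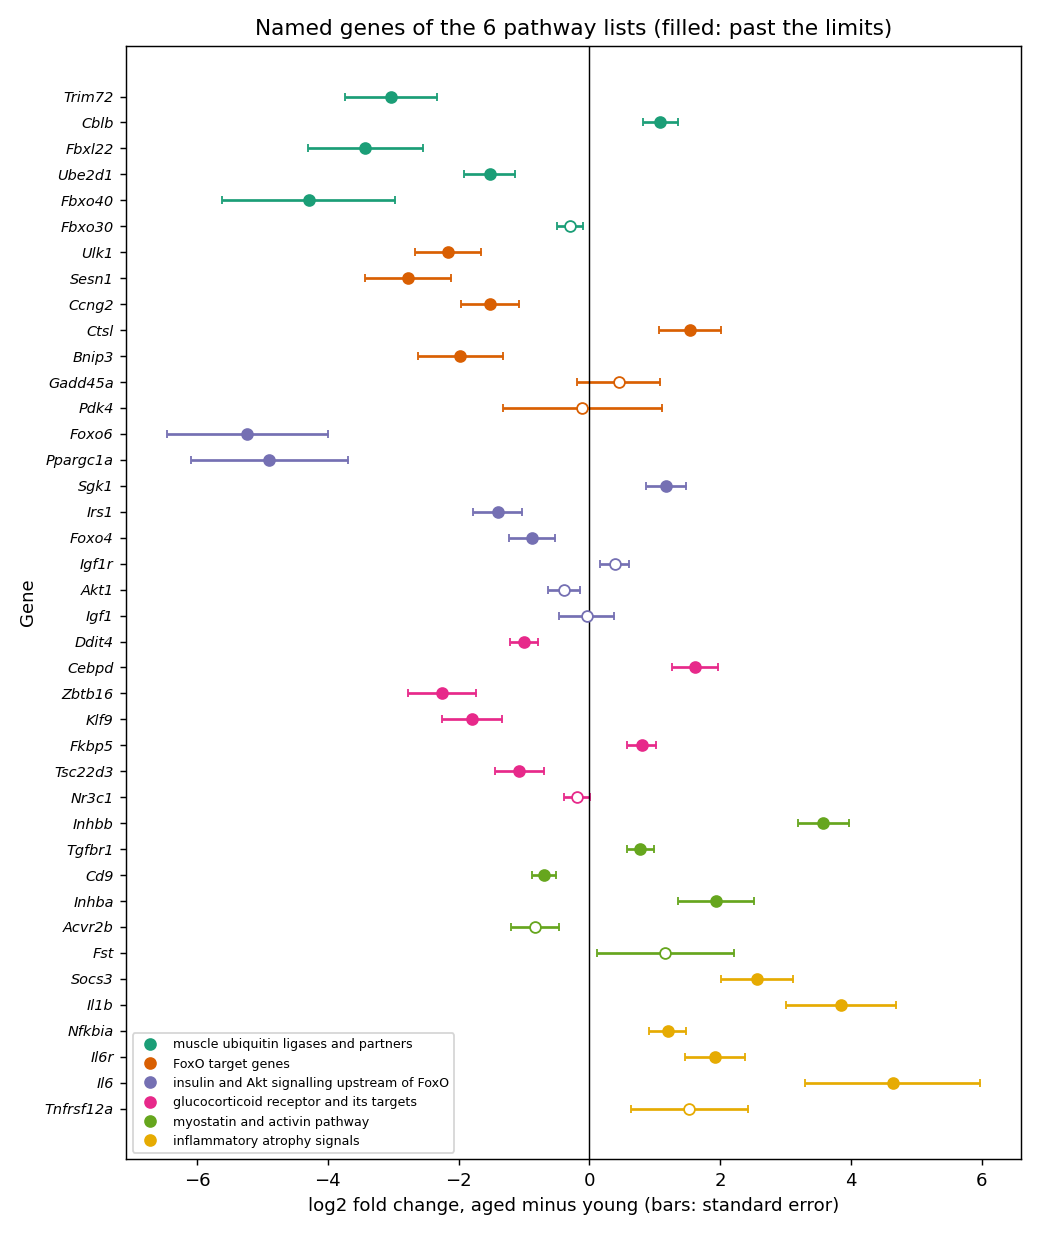
Points give the log2 fold change (aged minus young) of the named genes of the 6 pathway lists, bars the standard error, colors the list, and filled points the genes past the limits. Fbxo40 (-4.29), Ppargc1a (-4.89) and Foxo6 (-5.23) lie farthest to the left and Inhbb (3.57), Il1b (3.84) and Il6 (4.63) farthest to the right.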

How the data were processed

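RNA-Seq reads were counted per gene by the authors, who deposited the raw count and the FPKM of each gene in each heart. The deposited FPKM is the count divided by gene length and library total, which was checked on 133500 values and failed for 1, none of it among the members. The submitters' processing notes name HISAT2 2.0.5, StringTie 1.3.3b, featureCounts 1.5.0-p3, DESeq2 1.16.1, GATK 3.7 and the build Rnor_6.0, while their settings and the use of strand are not given in the sources used here. A near-identical gene copy could take reads from a member if counting was not unique. No other gene interval in the table overlaps a member.

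Differences were fitted with edgeR 4.0.16 in R 4.3.3 (filterByExpr, TMM, glmQLFit and glmQLFTest, Benjamini-Hochberg over all genes tested), and the standard error is the log2 fold change over the square root of F. Log2 CPM used a prior count of 2 and ratios a pseudocount of 0.5. The limits (fold change over 1.5 or under 0.67, p under 0.05) are those of the study, which does not say whether its p was adjusted, and p before adjustment was used here. Single values were compared by two-sided exact permutation tests. Alternatives used DESeq2 1.42.0, limma 3.58.1, other scalings and filters, a cardiomyocyte marker covariate, and leaving out hearts. The code was tested on simulated data without outlying libraries, which does not cover the spread between these hearts. Figures used Python 3.11.15 and matplotlib 3.10.9.

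The members and lists were chosen with earlier results of these data known. Named were all 8 members, the 4 genes of each list with the smallest unadjusted p, fixed partners, and the 3 genes most like each member, of which 1 is not reported here. Hearts of a group differed beyond sampling noise (chi-square per degree of freedom at least 10.2, young hearts 3 and 13, 13357 genes). Titin, Sirt1, Prodh and 4 further genes of the lists are not analysed here. Counting intervals and the limit of 3 counts cover counting error only.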

Additional observations from a re-analysis of the deposited data

How the results depend on the processing

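No paired analysis was possible because the groups share only 1 animal number, which names different hearts. Main counts past the limits were 4 members, 4436 genes and 50 pathway list genes. Scaling on cardiomyocyte markers gave 2, 10378 and 81, with the members Foxo1 and Foxo3 now higher. That scaling moved the median of all genes to 5.75 on the log2 scale, with Fbxo32 at 1.92, Trim63 at 0.13, Trim55 at 1.53, Trim54 at 1.58, Foxo1 at 5.46, Foxo3 at 5.93 and Klf15 at 0.96. Relative to that median, Foxo3 (0.18), Gadd45a (-1.51), Igf1 (0.28) and Tnfrsf12a (-0.53) reversed, and the other 6 members stayed lower. The marker mean as covariate gave 0, 641 and 11, and reversed Trim63 (0.83), Trim54 (1.88), Pdk4 (3.29), Foxo4 (0.0023) and Fst (-0.12). Library totals alone gave 3 members, without Foxo1, beside 33.3% of all genes (10.4% lower), and a Foxo3 difference of log2 CPM of 0.091. An adjusted p under 0.1 in edgeR's quasi-likelihood test gave 2 members and 2578 genes, and under 0.05 it gave 0 and 0. DESeq2 called 5 members, adding Trim63, beside 36.5% of all genes past the limits (20.9% lower). limma-voom called 6 members (7503 genes), adding Foxo3 too, beside 54.4% of all genes (27.7% lower). Without the filter on low counts edgeR called 5 members, adding Mstn, beside 27.7% of all genes (16.2% lower). Leaving out 1 heart gave 2 members (without aged heart 7, beside 22.5% of all genes) to 7 members (without young heart 15, beside 51.1%). It gave 2432 (without young heart 3) to 7214 genes (without young heart 15) and 32 (without young heart 13) to 72 list genes (without young heart 15). Leaving out young heart 15 and aged heart 3, chosen after seeing the data, gave 7 members and 7396 genes. Leaving out hearts reversed Pdk4 (0.26 without young heart 13, 0.47 without aged heart 3, 0.13 without both hearts that stood apart), Igf1 (0.26 without young heart 15, 0.010 without aged heart 4, 0.27 without aged heart 7) and Gadd45a (-0.15 without aged heart 7), whose ranges were -1.21 to 0.47, -0.49 to 0.27 and -0.15 to 0.91. It also reversed the log2 ratios Trim54/Trim55 (-0.0055 without aged heart 4, -0.24 without aged heart 7, up to 1.73), Fbxo32/Trim63 (-0.61 without aged heart 3, up to 1.77) and Klf15 over the markers (-0.43 without aged heart 3, up to 1.13). Of 751 recomputed fold changes of single genes, 631 kept their direction and side of the p threshold. For library totals, with or without mitochondrial genes, and for cardiomyocyte marker scaling, direction here was judged after subtracting the setting's median fold change. The p was that of the unshifted fit. Some fitted values that changed sign therefore count as kept. Examples are Foxo1 (5.46) and Trim63 (0.13) under marker scaling and Foxo3 (0.10) under library totals alone. Of 120 ratios and level differences 115 kept their direction, and of 244 counts 151 stayed within 1.5 times. The cause of these changes was not tested. Depth limits Mstn and Il6, and 3 hearts a group limit every p.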

Other observations

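The pathway assignments in the deposited table give a wider view. Of 109 tested genes in the KEGG FoxO signaling pathway, 17 were higher and 22 lower past the limits in aged donor hearts, with a median log2 fold change of 0.027. These are 15.6% and 20.2% of the list, beside 13.2% higher and 19.0% lower among all genes tested. Of 129 tested genes in KEGG ubiquitin mediated proteolysis, 8 were higher (6.20%) and 19 lower (14.7%), with a median of -0.068. The genes named next were chosen after their values were seen. In the FoxO pathway, Slc2a4, encoding the insulin-responsive glucose transporter, fell by 6.60 (SE 1.45) and Tnfsf10, encoding the death ligand TRAIL, by 3.34 (SE 0.58), while Plk3 rose by 2.43 (SE 0.61) and Il10 by 2.58 (SE 0.73) on the log2 scale. In ubiquitin mediated proteolysis, Uba7, the activating enzyme of ISG15, fell by 1.84 (SE 0.32), and Birc3, an inhibitor of apoptosis with ligase activity, rose by 1.99 (SE 0.37). Neutrophil and macrophage markers were higher and cardiomyocyte markers lower in the same hearts, and their part in these values was not tested.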
